A study of Mus musculus with 12 samples.

Results

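RNA of hepatocytes freshly isolated from the liver of IkkβF/F mice, written FF, was compared with RNA of FF liver tissue. The comparison used 6 of the 12 Illumina mouse bead arrays of the study, 3 labelled as fresh isolated hepatocytes and 3 as fresh liver, all Cre(-). These groups were chosen by their labels, and every expressed probe was compared. The mice were male and of strain C57BL6/J. Their age was 4 to 6 weeks by the labels but 6 to 8 weeks by the design text. The other 6 arrays hold the same preparations of Cre(+) IkkβDhep mice, written Dhep, which the labels give as deleted for Ikkβ. The kept probe of Ikbkb, the gene of Ikkβ, did not follow this label: hepatocytes labelled Dhep had a mean of 7.66 against 7.35 for those labelled FF, and the livers 7.47 against 7.62. Whether the probe lies in the deleted part was not analysed here, so Dhep below means the arrays labelled so. The labels do not say what drives Cre. The study's description names 4 mice and 4 RNA samples, so the 3 arrays of a group probably repeat 1 RNA sample of 1 mouse. Preparation, individual mouse and handling of an RNA sample then cannot be told apart, and each p-value compares 2 RNA samples.

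Liver tissue is made mostly of hepatocytes by mass, with sinusoidal endothelial cells, Kupffer cells, stellate cells and bile duct cells among them. Isolating hepatocytes by digesting the liver usually removes most of the other cells, and it takes the hepatocytes off their matrix and away from blood and its hormones. Hepatocytes make most plasma proteins, bile acids, glucose, urea and heme enzymes of the body, and several of these pathways follow glucocorticoids, growth hormone, metals or the circadian clock.

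Values are levels on the normalized log2 intensity scale or differences of hepatocytes minus liver on that scale. A probe or gene was called higher or lower at a limma adjusted p under 0.05 and a difference of at least 1, which is a 2-fold change. Only called genes are said to rise or fall. Each gene was read on its brightest probe. In hepatocytes 286 of 22859 expressed probes were called higher (1.25%) and 44 lower (0.192%). By gene, 101 of 12010 rose (0.841%) and 27 fell (0.225%). On adjusted p alone 2540 genes were higher (21.1%) and 3441 lower (28.7%), and in 6760 genes (56.3%) the arrays of the 2 groups did not overlap. These shares of all genes are the background for the list counts below. The median difference over all genes was -0.03, the median absolute difference 0.15 and its 95th percentile 0.65. No test of FF alone can be made on RNA means, with 1 mean per group. A limma fit of preparation and genotype to the 4 RNA means, which tests the isolation difference averaged over FF and Dhep and leaves 1 residual degree of freedom, called 0 probes, and 59 reached an unadjusted p under 0.05 with the fold.

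The balance of rises and falls rested on the scaling of the arrays. The 75th percentile of raw intensity was 75.5 to 85.7 on the FF hepatocyte arrays and 101 to 114 on the FF liver arrays. Quantile normalization makes these distributions equal. When arrays were scaled only to a common median, 41 genes were higher and 340 lower, and the median over all genes moved from -0.03 to -0.20. All 27 genes that fell were among the 340, and the 41 were all among the 101 that rose. Group medians below are therefore also given after median scaling, less the median of all genes under that scaling, where the sign differs. Within groups Pearson's r between arrays was at least 0.9977 over probes, and it was 0.982 to 0.983 between FF liver and FF hepatocyte arrays. The median SD between arrays was 0.061 in liver and 0.067 in hepatocytes.

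Markers of endothelial, stellate and Kupffer cells were not called lower in the RNA labelled FF hepatocytes, while the bile duct marker Sox9, described below, was. None of 28 measured markers of liver sinusoidal endothelial cells was called lower, and none of 23 of stellate cells and fibroblasts or of 26 of Kupffer cells and macrophages. In bulk RNA, fewer cells of a type and less RNA per cell cannot be told apart. Stab2, a scavenger receptor of sinusoidal endothelium named here for its role, stood at 9.04, 8.71 and 8.73 in liver and at 8.90, 8.90 and 8.83 in hepatocytes. Its arrays overlapped. Clec4f, a lectin of Kupffer cells also named for its role, stood at 9.39, 9.38 and 9.36 in liver and at 9.21, 9.13 and 9.15 in hepatocytes, a difference of -0.22. Dcn, the matrix proteoglycan decorin of fibroblasts and stellate cells, stood at 12.53, 12.56 and 12.46 in liver and at 12.47, 12.39 and 12.45 in hepatocytes. That is a difference of -0.08 on overlapping arrays.

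The endothelial list had a median of 0.20, with 19 of 28 genes higher on adjusted p alone and 0 lower. After median scaling its median was -0.15, or 0.05 above that of all genes, with 3 genes higher and 12 lower on adjusted p alone. Of all 12006 genes under that scaling, 658 were higher and 6385 lower on adjusted p alone. The largest differences were Gpr182, an orphan receptor of endothelium (0.85), and Lyve1, a hyaluronan receptor (0.77). Gpr182 stood at 8.80, 8.85 and 8.95 in liver and at 9.59, 9.77 and 9.78 in hepatocytes. The stellate list had a median of 0.03, with 7 of 23 genes higher and 6 lower on adjusted p alone. After median scaling it was -0.35, or 0.15 below all genes, with 0 higher and 15 lower. Lrat, which stores retinol as esters in stellate cells, stood at -0.62 and Reln, a matrix glycoprotein, at -0.35. The Kupffer list had a median of -0.05, which was 0.05 with cyclic loess and -0.44 after median scaling, 0.24 below all genes, where 20 of 26 genes were lower and 0 higher on adjusted p alone. Its lowest and highest members were the complement receptor Vsig4 (-0.57) and the metal transporter Slc11a1 (0.44, and -0.24 on its lowest probe).

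Linear intensity was also summed over whole lists, after quantile normalization only. Endothelial markers summed to 17865 to 18006 in the FF liver arrays and to 21622 to 22211 in the FF hepatocyte arrays. Stellate markers summed to 15584 to 15933 and to 15092 to 15444, and Kupffer markers to 13499 to 14096 and to 13312 to 13554. Bmp2 and Maf of the endothelial list, Tagln, Hand2 and Lox of the stellate list and Cd5l of the Kupffer list were below the floor in all groups. The 25 measured hepatocyte markers summed to 517838 to 522716 in liver and to 526251 to 533237 in hepatocytes, with a median difference of 0.00. Fabp1 of that list was below the floor. Asgr2, a subunit of the hepatocyte asialoglycoprotein receptor, was the 1 hepatocyte marker called (0.74 and not called after median scaling), at 9.45, 9.38 and 9.31 in liver and 10.51, 10.59 and 10.60 in hepatocytes (1.19, SE 0.06, 3 arrays in each group). The dim probe kept for Alb, which encodes albumin, differed by 0.53. Under 4 scalings (quantile, median, cyclic loess and the authors' own) 0 endothelial and 0 stellate markers were called lower in FF hepatocytes, and 1 Kupffer marker was called lower after median scaling only. The group is called by its label below, although no marker in the endothelial or stellate list fell. Whether the preparation was impure or labels were exchanged was not tested, and every difference below is one between RNA samples labelled so.

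**Figure D1:**
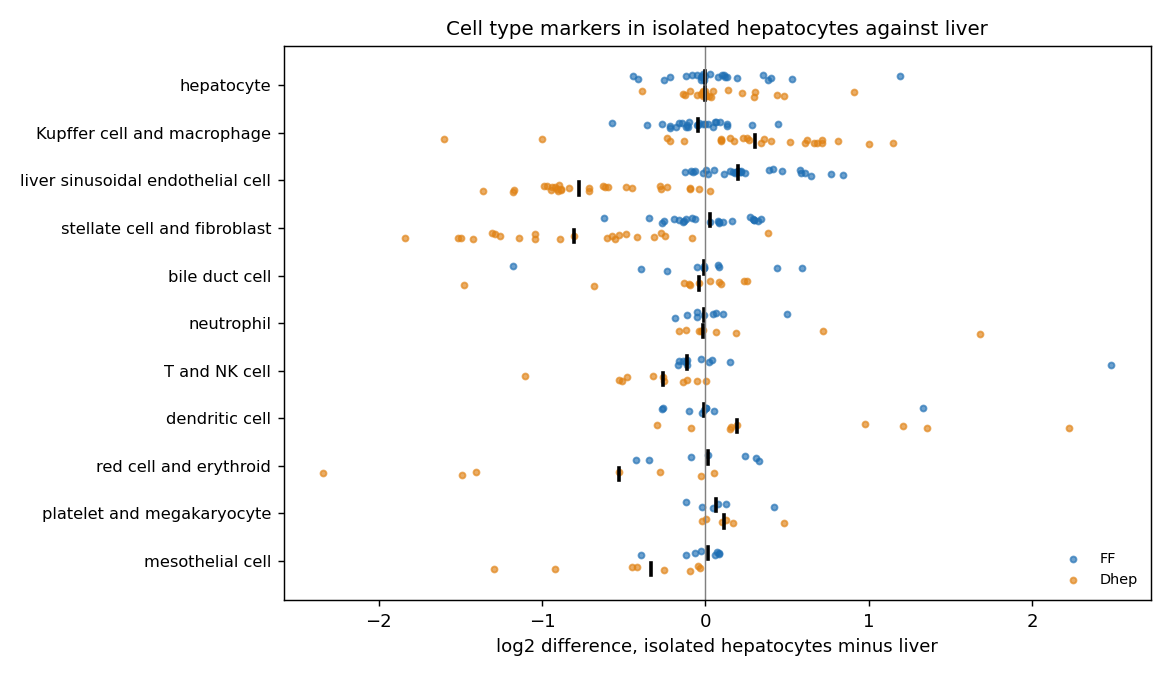
Each point is the log2 difference, isolated hepatocytes minus liver, of 1 marker gene on its brightest probe, in FF (blue) and in Dhep (orange), and black bars are list medians. The endothelial and stellate medians lie at 0.20 and 0.03 in FF and at -0.78 and -0.81 in Dhep. The Kupffer median lies at -0.05 in FF and at 0.30 in Dhep.

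In Dhep 3 endothelial and 10 stellate markers were lower in hepatocytes than in liver, where 0.624% of genes were. The median there was -0.78 for endothelial and -0.81 for stellate markers. The FF difference exceeded the Dhep difference by a median of 1.00 for endothelial and 0.83 for stellate markers. By limma's test of this difference 14 endothelial and 11 stellate markers were called higher in FF and 0 lower, where 1.57% of all genes were called higher and 0.891% lower (1.78% and 0.748% of probes). After median scaling these medians were 0.47 and 0.37 against -0.31 for all genes, with 2 markers of each list called. Summed endothelial markers went from 19196 to 19565 in Dhep liver down to 10878 to 11273 in Dhep hepatocytes. Not all cell types were lower there. Of Kupffer markers 2 were called higher and 1 lower in Dhep, with a median of 0.30. They summed to 27694 to 27998 in Dhep liver and to 40563 to 41464 in Dhep hepatocytes. Neutrophil markers went from 1889 to 2001 up to 3991 to 4270. Dendritic cell markers, which include MHC class II genes, went from 14892 to 15221 up to 45337 to 46179. Hba-a1, a haemoglobin chain of red cells, stood at 8.97, 8.98 and 8.94 in FF liver and 9.21, 9.26 and 9.41 in FF hepatocytes. Its difference was 0.33 in FF, or -0.17 after median scaling, and -2.34 in Dhep. Other red cell markers differed from it in FF, with Alas2 at -0.43 and Tfrc at -0.34. The 7 measured red cell markers summed to 5000 to 5077 in FF liver and to 4646 to 4687 in FF hepatocytes. Their median was 0.01 in FF, or -0.25 after median scaling, 0.05 below all genes, and -0.53 in Dhep. Whether endothelial, stellate or red cell content had a part in the other differences below was not tested.

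Of the smaller marker lists, bile duct cells had 1 called gene of 11, T and NK cells 1 of 11, dendritic cells 1 of 9, and neutrophils, red cells, platelets, mesothelium and B cells 0. Sox9, which bile duct cells use to keep their identity, fell from 8.66, 8.51 and 8.57 in liver to 7.36, 7.45 and 7.39 in hepatocytes (-1.18, SE 0.06, 3 arrays in each group, adjusted p = 1.96e-14 by limma), with -0.32 on its other probe. Epcam, Cftr, Prom1 and Cd24a of the bile duct list were below the floor, and its keratins Krt7 and Krt19 stood at -0.01 and 0.08. Prf1, the pore-forming perforin of cytotoxic lymphocytes, rose by 2.48, while Cd3e, Cd3g and Klrb1c stood between -0.14 and -0.17. Siglech, a lectin of plasmacytoid dendritic cells, rose by 1.33 on its brightest probe (0.98 with the authors' normalized values), while the other probe stood at -0.03.

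The largest differences were single genes of varied function. Erich5 (probe ILMN_2819380) stood at 9.17, 9.26 and 9.35 in liver and at 12.36, 12.15 and 12.31 in hepatocytes, an 8.08-fold rise (3.02, SE 0.06, 3 arrays in each group, adjusted p = 1.09e-20 by limma). Serpina4-ps1, a pseudogene of the serpin family, went from 7.83, 7.73 and 7.78 to 10.56, 10.53 and 10.43, a 6.63-fold rise. Zxda, a zinc finger gene, went from 8.06, 8.17 and 8.10 to 10.63, 10.71 and 10.83, a 6.12-fold rise. In each of these the hepatocyte arrays lay above the liver arrays without overlap, which the naming rule required of the largest differences. No overlap was seen in any of the 101 genes that rose, nor in 56.3% of all genes. Rhbdl2, a rhomboid protease, rose by 2.27, the signalling regulator Rgs16 by 2.06 and Ifngr2, a chain of the interferon-γ receptor, by 2.36, though its lowest probe stood at 0.13. Cox6b2, a testis form of a cytochrome oxidase subunit, was at the floor in liver (6.06, 5.95 and 5.94) and at 8.35, 8.50 and 8.33 in hepatocytes, at least 5.03-fold higher.

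Among the falls, Nlrp12, an innate immune receptor gene, stood at 9.10, 9.16 and 9.04 in liver and at the floor in hepatocytes (5.72, 5.91 and 5.93), at least 8.21-fold lower. Lrtm1 fell by 1.79, Osgin1, a growth inhibitor gene induced by oxidative stress, by 1.45, and Ctcfl, a germ-line relative of CTCF, by 1.39. Isoc2a fell by 1.30, the mRNA decay factor Zfp36l1 by 1.21, Sowahb by 1.19 and the kynurenine aminotransferase Kyat3 by 1.18, with -0.06 on another probe. Osgin1 went from 10.62, 10.70 and 10.85 in liver to 9.23, 9.26 and 9.33 in hepatocytes. With the authors' normalized values Ctcfl (-0.99) and Sowahb (-0.94) missed the fold.

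**Figure D2:**
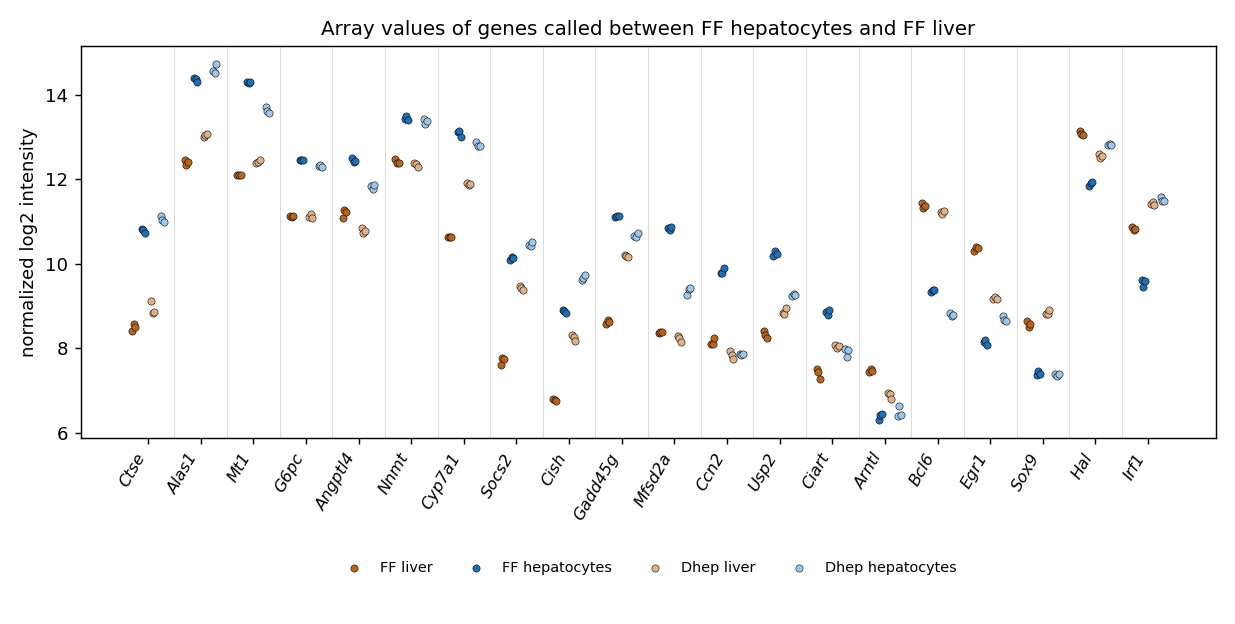
Normalized log2 intensity of 20 genes called between FF hepatocytes and FF liver, with 1 point per array in all 4 groups. Bcl6, Ctse and Alas1 shift alike in FF and Dhep, while FF liver is the lowest group for Socs2, Cish, Gadd45g and Cyp7a1 and FF hepatocytes the highest for Ccn2, Usp2 and Ciart.

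Growth hormone signals in hepatocytes through JAK2 and the transcription factor STAT5, which binds a palindrome written TTCNNNGAA. It induces the feedback inhibitors Socs2 and Cish and, in mouse liver, represses Bcl6. The promoters of the measured genes are shown because the 3 genes were the called members of this list and moved in opposite directions. Socs2 had no promoter entry. The windows are from RefSeq on GRCm38.p6, 250 bases before to 50 after the annotated start, at chr9:107296409-107296708 on the plus strand for Cish and chr16:23988803-23989102 on the minus strand for Bcl6. Capitals mark TTCNNNGAA on either strand.
Cish: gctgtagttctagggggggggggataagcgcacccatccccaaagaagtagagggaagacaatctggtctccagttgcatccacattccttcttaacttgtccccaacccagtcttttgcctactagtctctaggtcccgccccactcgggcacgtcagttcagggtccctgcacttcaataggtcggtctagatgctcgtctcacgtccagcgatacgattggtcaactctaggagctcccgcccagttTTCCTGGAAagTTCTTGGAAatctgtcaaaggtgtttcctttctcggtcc
Bcl6: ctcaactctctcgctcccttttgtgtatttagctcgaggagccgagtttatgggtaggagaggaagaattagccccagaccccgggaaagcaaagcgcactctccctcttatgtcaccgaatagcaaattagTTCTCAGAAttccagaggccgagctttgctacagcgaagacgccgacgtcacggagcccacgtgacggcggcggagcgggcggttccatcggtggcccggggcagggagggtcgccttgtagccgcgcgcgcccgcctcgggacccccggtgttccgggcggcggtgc
The Cish window holds the motif at 2 positions and the Bcl6 window at 1, and no base of the 2 Cish positions is shared. Bcl6 has a further annotated start, whose window holds 3. At least 1 position occurs in 8.3% of 32851 promoter windows at least 2 in 0.457% and at least 3 in 0.0335%. A match describes the letters and is no evidence of binding.

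Cish (ILMN_2718330) stood at 6.80, 6.77 and 6.76 in liver and at 8.90, 8.87 and 8.84 in hepatocytes, a 4.28-fold rise (2.10, SE 0.06, 3 arrays in each group, adjusted p = 5.62e-19 by limma). Socs2 went from 7.60, 7.77 and 7.75 to 10.09, 10.17 and 10.13 (2.42, SE 0.06). Bcl6 (ILMN_1230353) went from 11.43, 11.31 and 11.38 to 9.32, 9.38 and 9.37, a 4.04-fold fall (-2.01, SE 0.05). The arrays of the groups did not overlap for any of the 3 genes, as for every called gene and 56.3% of all genes. Dhep hepatocytes differed from Dhep liver the same way, by 1.42, 1.04 and -2.41. FF liver stood at least 1 below each of the other 3 RNA samples for Cish and Socs2, Dhep liver being at 8.25 and 9.42. Of the 26 measured growth hormone and STAT5 genes these 3 were called. The list's median was 0.15, 0.18 above all genes and 0.08 above them after median scaling. Igf1, the main growth factor induced by growth hormone, stood at 0.47, the sex-biased cytochromes Cyp2d9 and Cyp4a12a at 0.13 and -0.24, and Stat5a at -0.54.

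Glucocorticoid receptor targets had a median of 0.50, the highest of the 40 pathway lists here but below acute phase genes (0.11) after median scaling. Of 25 measured genes 6 rose and 0 fell, where 0.841% of all genes rose and 0.225% fell. After median scaling the median was 0.09, 0.29 above all genes, and 3 rose and 1 fell. Mfsd2a, a transporter of lysophospholipids, went from 8.36, 8.38 and 8.37 in liver to 10.86, 10.81 and 10.88 in hepatocytes (2.48, SE 0.06, 3 arrays in each group). Lpin1, a phosphatidate phosphatase, rose by 1.67 (0.42 on its lowest probe) and Ddit4, an inhibitor of mTORC1 signalling, by 1.03. Ddit4 missed the fold without hepatocyte array 1 (0.98), with the authors' normalized values (0.96) and after median scaling (0.63). The other 3 that rose, Mt1, G6pc and Angptl4, are described below. Common targets were unequal: Igfbp1 stood at 0.91, Tsc22d3 at 0.63, Fkbp5 at 0.33, Tat at -0.25 and Pck1 at -0.65.

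Metallothioneins bind zinc and copper, and metals and glucocorticoids induce them. The Mt1 promoter is shown with its metal response core, TGCACNC or TGCGCNC on either strand, in capitals, at chr8:94178839-94179138 on the plus strand of GRCm38.p6 (RefSeq).
Mt1: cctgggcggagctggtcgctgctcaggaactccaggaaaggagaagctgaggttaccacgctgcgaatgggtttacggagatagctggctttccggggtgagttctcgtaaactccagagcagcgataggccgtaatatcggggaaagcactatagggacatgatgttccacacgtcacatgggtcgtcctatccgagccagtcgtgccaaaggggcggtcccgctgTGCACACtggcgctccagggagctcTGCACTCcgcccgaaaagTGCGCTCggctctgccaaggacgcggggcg
The window holds 3 positions, and 1.97% of windows hold at least 3. The windows of Mt2 and Slc30a1, genes that were not called, hold 4 and 2. At least 4 occur in 0.517% of windows and at least 2 in 7.11%. Mt1 (ILMN_2596522) stood at 12.12, 12.10 and 12.11 in liver and at 14.31, 14.27 and 14.30 in hepatocytes, a 4.55-fold rise (2.19, SE 0.05, 3 arrays in each group, adjusted p = 9.11e-20 by limma). Mt2, on a dim probe, went from 6.26, 6.47 and 6.36 to 7.14, 7.34 and 7.22 (0.87), short of the fold. Its arrays did not overlap, as in 56.3% of all genes. The zinc exporter Slc30a1, another target of the metal-responsive factor, stood at 0.34.

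The rest of the oxidative stress list lay lower. Apart from Mt1 no gene of 31 was called, 17 were lower and 6 higher on adjusted p alone, and the median was -0.21. The glutathione transferases Gsta1 and Gsta2 stood at -0.90 and -0.89, and the glutathione synthesis subunits Gclc and Gclm at -0.65 and -0.61. Gsta1 went from 9.92, 10.04 and 10.02 to 9.09, 9.13 and 9.07. Of 38 phase II conjugation genes, Nnmt, which methylates nicotinamide, rose from 12.48, 12.38 and 12.40 to 13.42, 13.51 and 13.42 (1.03), and Gstt3 fell (-1.02). Both lay near the fold. Nnmt was at 0.996 without hepatocyte array 2 and 0.71 after median scaling. Gstt3 was at -0.96 with cyclic loess, -0.967 with the authors' normalized values, -0.997 without liver array 3 and -0.998 without hepatocyte array 3. The list's median was -0.13. Of 31 drug-metabolizing CYP genes 0 were called by limma and 0 by the authors' normalized values, while 1 was called lower after median scaling. On adjusted p alone 9 were higher and 10 lower, where 21.1% and 28.7% of all genes were.

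Alas1, whose enzyme starts and limits heme synthesis in liver, was the 1 gene called of 28 of heme and iron. It stood at 12.46, 12.34 and 12.40 in liver and at 14.41, 14.39 and 14.32 in hepatocytes, a 3.91-fold rise (1.97, SE 0.06, 3 arrays in each group, adjusted p = 6.75e-18 by limma). The later enzymes of the pathway, Alad, Urod, Cpox and Fech, stood at -0.18, -0.10, -0.45 and -0.26. Tfr2, the iron-sensing transferrin receptor of hepatocytes, stood at 0.69 (-0.20 on its other probe) and the iron hormone gene Hamp at 0.41. Alas1 thus rose while the 4 enzymes after it were slightly lower.

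Clock genes differed in both directions. The clock runs on BMAL1, encoded by Arntl, and CLOCK, which bind the E-box CACGTG and drive Per1, Per2, Ciart, Usp2 and other genes. The Ciart promoter is shown because it holds the box at 3 positions, in capitals, at chr3:95882179-95882478 on the minus strand of GRCm38.p6 (RefSeq).
Ciart: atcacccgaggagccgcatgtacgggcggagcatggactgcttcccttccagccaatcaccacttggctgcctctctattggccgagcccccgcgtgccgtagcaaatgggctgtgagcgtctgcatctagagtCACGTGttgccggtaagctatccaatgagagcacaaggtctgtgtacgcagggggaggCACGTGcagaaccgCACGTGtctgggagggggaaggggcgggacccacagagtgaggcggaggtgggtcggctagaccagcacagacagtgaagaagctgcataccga
At least 1 box occurs in 7.15% of windows and at least 3 in 0.0883%. The 1 window of Usp2 and of Noct and both windows of Arntl held none, nor did that of Dbp or the 3 of Clock. Per1 held 1 box in 1 of its 2 windows, and Per2 had no entry. Usp2, a deubiquitinase, rose from 8.41, 8.32 and 8.24 to 10.17, 10.30 and 10.24 (1.92, and 0.08 on its lowest probe). Ciart, a repressor of CLOCK and BMAL1, rose from 7.50, 7.44 and 7.27 to 8.85, 8.79 and 8.91 (1.45, and 0.68 on its lowest probe). Arntl fell from 7.44, 7.51 and 7.46 to 6.29, 6.41 and 6.44 (-1.09, and -0.99 with cyclic loess and -0.83 with the authors' normalized values). The groups did not overlap for these 3 genes, as for every called gene and 56.3% of all genes. Noct, a rhythmic phosphatase gene, rose by 1.35 (0.89 after median scaling), while Per1 (0.86), Per2 (0.72) and Clock (-0.66) were short of the fold. The median of the 18 genes was 0.16, and 0.02 below all genes after median scaling. No label used here gives the time of day, and its part was not tested.

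Cyp7a1, which sets the rate at which cholesterol becomes bile acid, was the 1 gene called of 26 of bile acid synthesis and transport. It stood at 10.65 on all 3 liver arrays and at 13.13, 13.14 and 13.01 in hepatocytes, a 5.46-fold rise (2.45, SE 0.05, 3 arrays in each group, adjusted p = 2.93e-20 by limma). Dhep liver stood at 11.89, between the FF groups, and Dhep hepatocytes at 12.82. Slc10a1, the bile salt uptake carrier, stood at 0.87, Cyp8b1, which sets the kind of bile acid made, at 0.25, and the export pump Abcb11 at 0.11. The list's median was 0.14, or 0.06 above all genes after median scaling.

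In glucose metabolism 3 of 26 genes rose and 0 fell, yet the median was -0.17. G6pc, the catalytic subunit of glucose-6-phosphatase, went from 11.13, 11.11 and 11.14 to 12.45, 12.46 and 12.46 (1.33, SE 0.05, 3 arrays in each group). Slc37a4, which carries glucose 6-phosphate to that enzyme, rose from 8.65, 8.72 and 8.89 to 9.79, 10.06 and 10.03 (1.21). Gbe1, the glycogen branching enzyme, rose by 1.15 from a liver mean of 6.37, near the floor of 6.06. Its probe is without a curated mRNA accession. All 3 were under the fold after median scaling, at 0.95, 0.75 and 0.90, and Gbe1 also with the authors' normalized values (0.898). On adjusted p alone 15 of the 26 were lower and 6 higher, among the latter Gckr (0.43), a regulator of glucokinase, Khk (0.31), which phosphorylates fructose, and the glucose carrier Slc2a2 (0.29). Among those lower, Pck1 stood at -0.65, the glycogen synthase Gys2 at -0.54, the phosphorylase Pygl at -0.42, and the glycolytic enzymes Pgk1 and Tpi1 at -0.55 and -0.54. In Dhep G6pc rose too (1.18).

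Lipid genes were mixed. Angptl4, an inhibitor of lipoprotein lipase, was the 1 gene called of 29 PPARα and fatty acid oxidation genes, going from 11.09, 11.28 and 11.22 to 12.50, 12.42 and 12.42 (1.25, and 0.07 on its other probe). The list's median was -0.22, with 16 lower and 8 higher on adjusted p alone. After median scaling Angptl4 was under the fold and 3 other genes were called lower. Ehhadh, a peroxisomal oxidation enzyme, stood at -0.79, Acadm at -0.59 and Cpt2 at -0.60. Of 27 lipogenesis and triglyceride genes Lpin1 and Mlxipl rose, Mlxipl being the glucose-responsive factor ChREBP (1.10, and 0.67 after median scaling). The enzymes Acly and Me1 that feed fatty acid synthesis stood at -0.87 and -0.88, and Fasn at -0.32. None of 18 cholesterol synthesis genes was called by limma, with 6 higher and 6 lower on adjusted p alone, and 0 by the authors' normalized values.

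Coagulation, complement, acute phase, hepatokine, solute carrier and serpin lists had medians above 0 after quantile normalization. Other lists of secreted or membrane proteins did not: extracellular matrix genes stood at a median of -0.08 and MHC class II genes at -0.02. Of 27 coagulation genes 17 were higher on adjusted p alone and 0 lower, with a median of 0.32. Of 24 complement genes 16 were higher and 1 lower, with a median of 0.29 (-0.01 after median scaling, which is 0.19 above all genes). None of either list reached the fold, by limma or by the authors' normalized values. F10, clotting factor X, went from 12.71, 12.64 and 12.47 to 13.53, 13.41 and 13.56 (0.89), and Hc, complement C5, from 11.65, 11.72 and 11.81 to 12.51, 12.42 and 12.52 (0.76). The differences of both were several times the spread of the arrays. After median scaling 3 coagulation genes were higher and 6 lower on adjusted p alone, and the median was 0.03, 0.23 above all genes. Of all 12006 genes 658 were higher and 6385 lower there on adjusted p alone.

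Of 32 acute phase genes 23 were higher and 2 lower on adjusted p alone, with a median of 0.39. Mt1 and Il6ra, the interleukin-6 receptor (1.20, but 0.05 on its lowest probe and 0.74, under the fold, after median scaling), were the members that rose. Serum amyloids Saa1, Saa2 and Saa3 stood at 0.36, 0.25 and 0.46, and the fibrinogen chains Fga, Fgb and Fgg at 0.13, 0.19 and 0.19. Among 21 hepatokine and activin genes, with a median of 0.38, Angptl4 and Inhbe, the activin E chain (1.18), rose and Apom, an apolipoprotein, stood at 0.95. After median scaling Angptl4 (0.87) and Inhbe (0.75) were under the fold, and 0 genes of the list were called higher and 1 lower. Of 44 solute carrier genes 30 were higher and 6 lower, with a median of 0.32, which turned to -0.02 after median scaling, 0.18 above all genes. Slc38a2, an amino acid carrier, was at 1.00, just past the fold, and at -0.09 on its lowest probe. It missed the fold after median scaling (0.56), without liver array 1 (0.94) and without hepatocyte array 1 or 3 (0.992 and 0.997). The 24 serpin genes had a median of 0.19, or -0.06 after median scaling, 0.14 above all genes.

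Of 30 genes of lysosomal proteases and autophagy 2 rose, both of them cathepsins. Ctse, cathepsin E, an aspartic protease of endosomes, stood at 8.41, 8.56 and 8.50 in liver and at 10.82, 10.81 and 10.73 in hepatocytes, a 4.92-fold rise (2.30, SE 0.07, 3 arrays in each group, adjusted p = 5.22e-18 by limma). The Ctse probe is without an accession. Ctsz, a cysteine protease, went from 10.09, 10.10 and 10.25 to 11.83, 11.84 and 11.75 (1.66, and 1.55 on its other probe). Ctsc and Ctsf stood at 0.94 and 0.83, Ctsh at 0.61, Ctsd at 0.39 and Ctsb at 0.33, while Ctsl stood at -0.29. Autophagy genes stood on either side of 0: Atg5 and Atg12 stood at -0.47 and -0.50, Sqstm1 at -0.37 and Map1lc3b at 0.22. The median was 0.00. Hexa (1.17), Hyal1 (1.15) and Npc1 (1.08), lysosomal genes noticed after their values were seen, also rose, but the lowest probes of Hyal1 and Npc1 stood at -0.04 and -0.25.

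**Figure D3:**
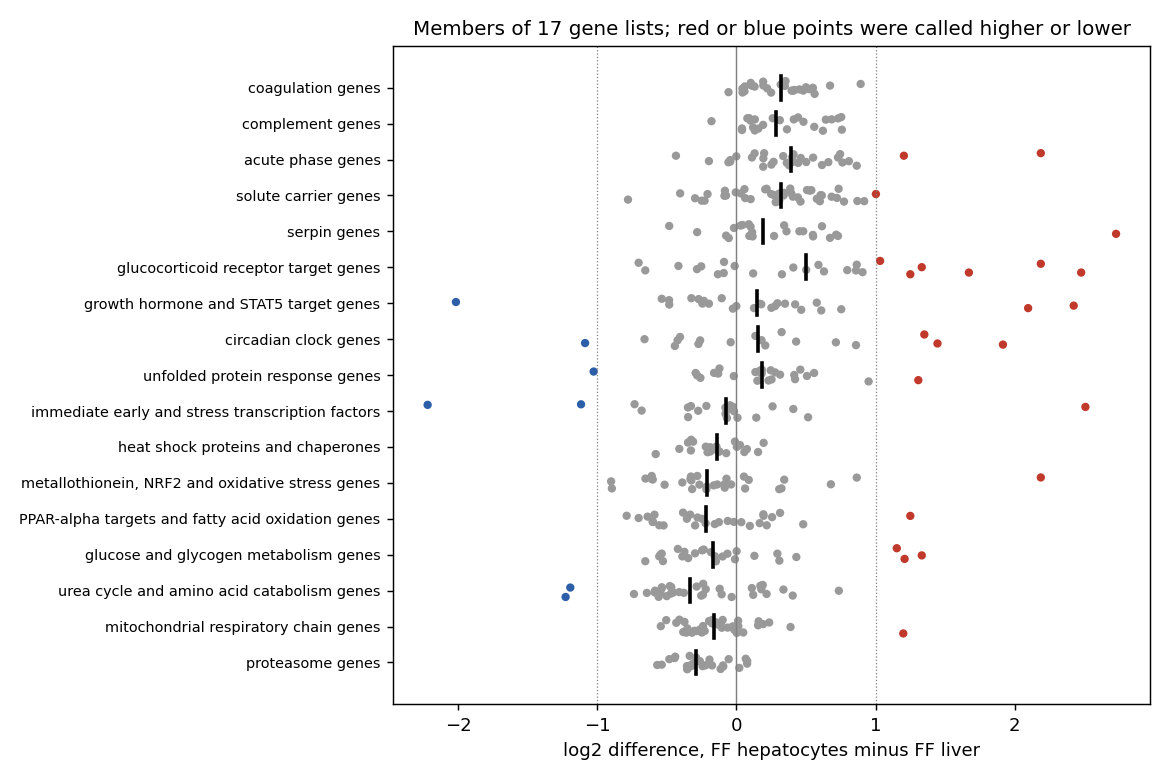
Each point is the log2 difference, FF hepatocytes minus FF liver, of 1 member of the 17 gene lists shown, black bars are list medians and dotted lines mark the fold threshold. Medians run from 0.50 for glucocorticoid receptor targets to -0.33 for urea cycle and amino acid catabolism, and few members pass the threshold.

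Enzymes of amino acid breakdown and the urea cycle lay lower. Of 34 genes 22 were lower and 5 higher on adjusted p alone, 2 fell, and the median of -0.33 was the lowest of all 40 pathway lists. Hal, histidine ammonia-lyase, fell from 13.15, 13.08 and 13.06 to 11.85, 11.92 and 11.94 (-1.19, SE 0.05, 3 arrays in each group, adjusted p = 7.45e-15 by limma). Cth, which makes cysteine from cystathionine, fell from 11.30, 11.34 and 11.40 to 10.23, 10.09 and 10.04 (-1.23). In the urea cycle the mitochondrial ornithine carrier Slc25a15 stood at -0.74, Otc at -0.53, Asl and Arg1 at -0.47, Cps1 at -0.22 and Ass1 at -0.12. The list's median in Dhep was 0.06, and the FF difference lay 0.27 below the Dhep difference at the median.

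Periportal hepatocytes, near the incoming blood, carry much of amino acid breakdown, and pericentral hepatocytes much of bile acid and glutamine synthesis. Of 23 periportal genes 1 rose (G6pc) and 2 fell, Hal and Etnppl, a phospholyase (-1.04, and -0.98 with cyclic loess and -0.99 with the authors' normalized values). Of 28 pericentral genes Cyp7a1 rose, the detoxifying dehydrogenase Aldh3a2 stood at -0.87 and Glul, glutamine synthetase, at 0.17. The medians were -0.12 and -0.09. With cyclic loess both turned to 0.02.

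Housekeeping complexes lay lower by small amounts. Of 29 proteasome genes 20 were lower and 0 higher on adjusted p alone, with a median of -0.29. Psmd1, a subunit of the regulatory cap, went from 12.47, 12.57 and 12.50 to 11.99, 11.90 and 11.95 (-0.57, and -0.02 on its mildest probe). Of 40 mitochondrial respiratory chain genes 20 were lower and 6 higher, with a median of -0.16. Atp5b, the catalytic subunit of ATP synthase, went from 14.83, 14.79 and 14.69 to 14.27, 14.18 and 14.24 (-0.54). Uqcrq, a complex III subunit, rose by 1.20 on a probe without a curated mRNA accession, but stood at 0.80, under the fold, after median scaling. Cytosolic ribosomal protein genes had a median of -0.10, which turned to 0.01 with cyclic loess, and heat shock proteins and chaperones a median of -0.14. None of these 26 and 22 genes was called by limma, and 0 by the authors' normalized values. On adjusted p alone 2 were higher in each list and 10 and 11 lower. After median scaling 1 heat shock gene was called lower, and on adjusted p alone 26 ribosomal and 19 heat shock genes were lower. Of all 12006 genes 6385 were lower there on adjusted p alone. Rpl23, a ribosomal protein gene outside the list, rose by 1.17 on its brightest probe, with -0.20 on its lowest. It was noticed after its value was seen.

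Immediate early genes, which rise within minutes of stress or injury in many cells, were not raised as a group. Of 22 genes Gadd45g rose and Egr1 and Junb fell, and the median was -0.07. Egr1, a zinc finger factor, went from 10.31, 10.41 and 10.37 in liver to 8.15, 8.20 and 8.08 in hepatocytes, a 4.65-fold fall (-2.22, SE 0.06, 3 arrays in each group, adjusted p = 2.1e-19 by limma). Junb, a subunit of AP-1, went from 8.69, 8.65 and 8.71 to 7.47, 7.54 and 7.70 (-1.12, and -0.945 with the authors' normalized values). Gadd45g, a stress sensor, rose from 8.57, 8.66 and 8.62 to 11.11, 11.13 and 11.13 (2.51, and 2.02 on its other probe). Fos, Jun and Atf3 stood at -0.02, 0.14 and 0.01. For Egr1 the level in Dhep was 9.19 in liver and 8.69 in hepatocytes, so FF liver was the highest of the 4 RNA samples.

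In the unfolded protein response list Chac1, a glutathione-degrading enzyme, rose by 1.31 and Trib3, a pseudokinase, fell by 1.02, although ATF4 and CHOP drive both. Chac1 missed the fold after median scaling (0.87). Trib3 missed the fold without liver array 2 (-0.98), with cyclic loess (-0.96) and with the authors' normalized values (-0.94). Among the chaperones of the endoplasmic reticulum Hspa5, Hsp90b1 and Creld2 stood at 0.18, 0.42 and 0.95. The list's median was 0.18, or 0.03 below all genes after median scaling. Of 24 hypoxia genes Ddit4 rose, Vegfa stood at 0.79 (0.41 on its other probe), 13 were lower on adjusted p alone and the median was -0.17. For p53 and apoptosis genes (27) and cell cycle genes (37) limma called 0, and 0 were called by the authors' normalized values. After median scaling 2 p53 and apoptosis genes and 0 cell cycle genes were called lower. On adjusted p alone 5 and 2 were higher and 10 and 11 lower, where 21.1% and 28.7% of all genes were.

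No gene of the NF-κB and interferon lists rose and 2 of each fell, where 0.841% of all genes rose and 0.225% fell. Irf1 was in both lists. Ikkβ, encoded by Ikbkb, activates NF-κB; its kept probe differed by -0.27 and that of the regulatory subunit Ikbkg by -0.47. Of 33 NF-κB targets, chemokines and adhesion genes 0 rose, and Irf1 and Tnfaip2 fell. On adjusted p alone 9 were higher and 11 lower, where 21.1% and 28.7% of all genes were. Irf1, a transcription factor of the interferon response, went from 10.87, 10.80 and 10.83 to 9.61, 9.44 and 9.58 (-1.29, SE 0.06, 3 arrays in each group, and -0.29 on the mildest of its 5 probes). Tnfaip2 stood at -1.04, -0.99 without hepatocyte array 2, -0.89 with cyclic loess, -0.82 with the authors' normalized values and -0.545 on its mildest probe. Tnf, Il1b, Cxcl1 and Ccl2, cytokines and chemokines of acute inflammation, stood between -0.30 and 0.01. Of 38 interferon-stimulated genes Irf1 and Tapbp fell, Tapbp, a peptide-loading factor, by 1.13 on its brightest probe (-0.97 with cyclic loess, -0.91 with the authors' normalized values) with 0.34 on another. On adjusted p alone 10 were higher and 14 lower, or 16 and 10 with cyclic loess, and the median was -0.01. That median was 0.06 with the authors' normalized values, 0.09 with cyclic loess and -0.40 after median scaling. The 11 MHC class II genes had a median of -0.02, 0.06 with cyclic loess, and 1.36 in Dhep.

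Cell contact and cytoskeletal genes split. Gjb1, the main gap junction protein of hepatocytes, rose from 8.08, 8.60 and 8.60 to 9.72, 9.47 and 9.76 (1.23). The spread of its liver arrays was wide, array 1 being the lowest. After median scaling Gjb1 was at 0.76 and not called, and 0 of 23 junction genes were called higher and 2 lower. Cldn3 stood at 0.85 and Cdh1, E-cadherin, at 0.38, while Tjp3, Cldn1 and Ocln of the tight junction stood at -0.75, -0.60 and -0.57. Ccn2, a matrix-associated growth factor and target of YAP, rose from 8.11, 8.10 and 8.23 to 9.79, 9.78 and 9.90 (1.68, and 1.65 on its other probe), while Ankrd1, another YAP target, did not pass the test. Tubb2b, a β-tubulin, fell from 10.38, 10.32 and 10.28 to 8.66, 8.53 and 8.46 (-1.78), but stood at 0.06 on another probe. The tubulins Tuba1b and Tubb5 stood at -0.80 and -0.62 and the hepatocyte keratins Krt18 and Krt8 at -0.66 and -0.39. Extracellular matrix genes (31, median -0.08) had 0 calls by limma, with 5 higher and 11 lower on adjusted p alone, and 0 by the authors' normalized values.

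Most calls were not shared with the corresponding pair of Dhep RNA samples, in which 77 genes were higher (0.641%) and 75 lower (0.624%). Of the 101 genes that rose in FF, 74 were above 0 in Dhep and 13 were called there. Of the 27 that fell, 20 were below 0 in Dhep and 3 were called. Median differences of these genes were 1.25 in FF and 0.22 in Dhep for the rises, and -1.19 and -0.38 for the falls. The genes were chosen on their FF values, so these medians are not an even comparison. The 13 shared rises were Ctse, Tuft1, Alas1, Cish, Slc4a4, Mt1, Mfsd2a, G6pc, Scara5, B3galt1, Socs2, Angptl4 and Nnmt, and the shared falls were Bcl6, Sox9 and Tubb2b. Tuft1 (1.49 in FF and 1.96 in Dhep), the bicarbonate carrier Slc4a4 (1.85 and 1.21), the ferritin receptor Scara5 (1.08 and 1.25) and the glycosyltransferase B3galt1 (1.47 and 1.08) were named for this overlap after their values were seen. Their lowest probes in FF stood at 0.39, 0.21, -0.01 and 0.12.

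The difference between FF and Dhep was itself called, in the direction of the FF difference, for 50 of the 101 rises and 11 of the 27 falls. Of all genes 1.57% were called higher and 0.891% lower in this way. The genes were chosen by their FF difference, which is part of the tested difference, so these counts are no independent support. Among them the difference from Dhep was largest for Erich5 (3.59, with 9.87 in Dhep liver and 9.29 in Dhep hepatocytes), Nlrp12 (-3.32, with both Dhep groups at the floor) and Zxda (3.12). For 38 of the 101 genes FF hepatocytes stood at least 1 above each of the other 3 RNA samples, and for 6 genes FF liver stood at least 1 below. Those 6 were Socs2, Cish, Cyp7a1, Gadd45g, Rgs16 and Cox6b2. Among the falls FF hepatocytes stood alone for 5 genes, Osgin1, Ctcfl, Irf1, Tapbp and Tnfaip2, and FF liver for Nlrp12 and Egr1. In these genes 1 RNA sample of the 4 stood apart from the rest. Over all genes Pearson's r between the 2 isolation differences was 0.21 and Spearman's rho 0.16, and 54.1% of genes had the same sign.

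**Figure D4:**
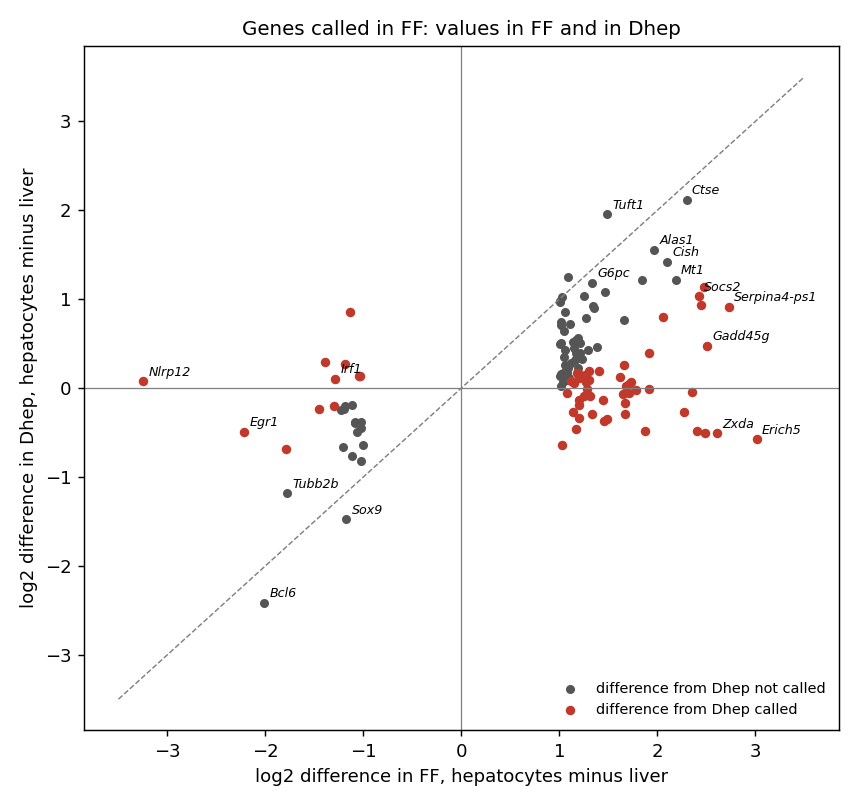
Each point is 1 of the 101 genes called higher or 27 called lower between FF hepatocytes and FF liver, with its log2 difference in FF on the horizontal and in Dhep on the vertical axis. Points in red were called for the difference between the axes, and the dashed line marks equal values. Bcl6, Sox9, Ctse and Alas1 lie near the line, Erich5, Zxda and Nlrp12 far from it.

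Called probes were unequally spread over kinds of annotation. Probes without a gene symbol were called higher in 2.83% of cases, against 0.952% of probes with a symbol, and lower in 0.137% against 0.203%. By accession, 112 of 17473 probes for curated mRNAs were called higher (0.641%), 114 of 3930 without an accession (2.9%), 56 of 1350 with another accession (4.15%) and 4 of 106 for curated non-coding RNAs (3.77%). Probes of 1 gene often disagreed. Of the 101 genes that rose, 50 had several kept probes: in 7 of these all were called, and in 18 at least 1 had the opposite sign. Of the 27 that fell, 15 had several kept probes, with all called in 3 and a probe of opposite sign in 3. No sequence or transcript position of a probe was analysed here.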

How the data were processed

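RNA was measured on 12 bead arrays, 3 per group. A table deposited by the authors holds raw linear intensity for every probe on each array, and another of theirs holds intensity normalized by a method not given in the sources used here. BeadStudio is named by the submitters' processing notes without a version. Each of the 12 raw columns correlated best with the normalized column of its own array. From the deposited intensity, log2 values were computed after normexp correction (offset 50) and then quantile normalized, and 4 group means were fitted with lmFit and eBayes in limma 3.58.1 (R 4.3.3). Figures used matplotlib 3.10.9.

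Of 45281 probes, 22859 were above the floor on every array of at least 1 group and were kept, the floor (6.06, log2) being the median over probes of their mean level. A level at or under this floor is a bound, and folds against it are lower bounds. Probes with 1 symbol numbered 34885, with several 18 and with none 10378. P-values were adjusted over all kept probes (Benjamini-Hochberg). The printed SE rests on the number of arrays and on limma's moderated spread between arrays, and the spread between mice is unknown.

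The comparison, its 40 pathway lists, its 12 marker lists and the naming rule were chosen with earlier results of these data known. The text names at most 15 genes with the greatest called rise and 15 with the greatest fall, called list members (up to 8 per list, or the 2 largest differences where fewer than 2 were called), up to 8 of the largest differences from Dhep each way, and Ikbkb, Ikbkg and Alb. Genes of the greatest rise or fall were named only where the arrays of the 2 groups did not overlap. Other list members are named for their role. The fit was tested on simulated data.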

Additional observations from a re-analysis of the deposited data

Results flagged for a closer look

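For 50 named genes the isolation difference in FF differed from that in Dhep by limma's test of the difference itself, at an adjusted p under 0.05 and at least 1 on the log2 scale. Values are FF minus Dhep. Of these genes, 36 were also called the same way after median scaling, with cyclic loess and in the authors' normalized values, 12 were lost after median scaling, 1 with cyclic loess and 3 in the authors' values.

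Among the 28 higher in FF, Erich5 (3.59), Zxda (3.12), Prf1 (2.99), Cox6b2 (2.89), Rhbdl2 (2.53), Ifngr2 (2.4), Gm26588 (2.35) and Gadd45g (2.03) led. The others were Lpin1 (1.84), Serpina4-ps1 (1.81), Ciart (1.58), Il6ra (1.54), Usp2 (1.53), Cyp7a1 (1.52), Socs2 (1.39), Mfsd2a (1.34), Rgs16 (1.26), Slc10a1 (1.22), Chac1 (1.11) and Inhbe (1.02). Uqcrq (1.34), Cldn3 (1.14), Ccn2 (1.65) and Siglech (1.62) were also higher. Markers of other cells in this group were Hba-a1 of red cells (2.67), Gpr182 (1.79) and Lyve1 (1.01) of endothelium and Reln of stellate cells (1.15), each below 0 in Dhep.

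The 22 lower in FF were Gm12250 (-2.91), H2-Bl (-2.71), Tgtp1 (-2.34), Gbp2b (-2.24), Cd74 (-2.17), Gbp3 (-2.07), Tapbp (-2.0), Ciita (-1.64), Irf1 (-1.39), H2-Aa (-1.24), Tnfaip2 (-1.18), Lcn2 (-1.18), Nlrp12 (-3.32), Egr1 (-1.73), Ctcfl (-1.68), Hal (-1.46), Fn1 (-1.37), Ehhadh (-1.25), Osgin1 (-1.22), Etnppl (-1.17), Lrtm1 (-1.1) and Isoc2a (-1.09). Each genotype and preparation probably rests on 1 RNA sample, and genotype, mouse and preparation then cannot be told apart in these values.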

How the results depend on the processing

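Of 60 called genes that the naming rule gave, 35 kept their call in every one of the 17 settings that measured their probe, other probes of the gene aside. Probe counts in FF were 286 higher and 44 lower. They were 514 and 89 with a normexp offset of 16, 115 and 551 after median scaling, 4778 and 6141 without the fold threshold, and 549 and 156 with limma's treat against a fold of 1.5. In the authors' normalized values 24 probes were lower. By gene, 162 were higher and 54 lower with offset 16, 41 and 340 after median scaling, 17 lower with cyclic loess and 13 lower in the authors' values. For FF against Dhep, 408 probes were higher and 171 lower, against 754 and 362 with offset 16, 112 and 1900 after median scaling, and 113 lower in the authors' values. The median scaling counts come with a shift of the median of all probes from -0.03 to -0.15. Leaving out each FF array in turn gave 275 to 293 probes higher and 41 to 50 lower, 96 to 103 genes higher and 26 to 30 lower, and 408 to 423 higher and 171 to 180 lower in FF against Dhep.

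Signs turned after median scaling for Cd74 (-0.45), Gm12250 (-0.078), Hba-a1 (-0.17) and Mzb1 (-0.044), and with cyclic loess for Ciita (0.064), Fpr2 (0.005) and Tgtp1 (0.27, and 0.09 in the authors' values). On the lowest of their probes signs turned for Cd74 (-0.22), Nr1i3 (-0.016), Siglech (-0.028), Slc11a1 (-0.24), Slc38a2 (-0.093), Srebf2 (-0.018) and Tfr2 (-0.20), and on the highest for Tapbp (0.34) and Tubb2b (0.061). The cause of these changes was not tested. Array numbers did not pair the arrays: deviations of same-numbered liver and hepatocyte arrays correlated at -0.024, -0.022 and 0.009, and the replicate block left 286 probes higher and 44 lower. Probes near the floor give bounds only.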
